A study of Mus musculus with 14 samples.

Results

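The lysosomal hydrolase and membrane genes described here are 45 genes taken by name: cathepsins and other proteases, glycosidases, sulfatases, enzymes and carriers of lipid breakdown, membrane proteins, the transcription factors Tfeb and Tfe3, and the progranulin gene Grn. Each matched 1 of the 23930 deposited targets through its RefSeq identifier, and 44 of them were among the 15184 targets with enough reads to be tested. Idua, which encodes the enzyme that removes iduronic acid from heparan and dermatan sulfate, had 0 to 10 reads per library and was not tested. Their transcripts were measured in 14 libraries of LSECs, the sinusoidal endothelial cells of the liver, which form the fenestrated wall of its capillaries. All mice were wild-type C57BL/6J females, and the cells were FAC-sorted from liver as CD45-dim, STAB2-high and CD146-high. There were 7 libraries from aged mice of 10 to 11 months and 7 from young mice of 8 to 10 weeks, processed as 2 experiments of 3 aged against 3 young and 4 aged against 4 young. A library is named by age, experiment and replicate, so that aged 1.3 is the third aged library of experiment 1. The labels leave it unsaid whether every library came from a different animal. The p-values therefore rest on the spread between libraries, part of which may be technical. The comparison of aged with young libraries asks which of these transcripts differed with the age of the mice.

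Lysosomes are acidic organelles in which proteins, glycans and lipids that arrive by endocytosis or autophagy are taken apart. Most of the soluble enzymes carry mannose 6-phosphate tags and are sorted to the lysosome by mannose 6-phosphate receptors, while membrane proteins such as LAMP1 and LAMP2 form the glycan-rich lining of its inner face. LSECs are scavenger cells: they clear hyaluronan, collagen fragments, modified proteins and small immune complexes from blood through the stabilins and the mannose receptor, and degrade them in lysosomes. TFEB and TFE3 are transcription factors that bind an E-box in the promoters of many lysosomal genes.

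The E-box is shown first because it is the shared promoter letter pattern for which this gene family is known. Promoter windows from 250 bases before to 50 bases after the RefSeq start (assembly GRCm38.p6) were given for 40 of the 45 genes, and not for Ctsb, Ctsh, Galns, Asah1 and Npc1. The hexamer CACGTG, which reads the same on both strands, was present in the windows of 13 of the 40 genes (32.5%). The share was 8.1% of the 27025 genes in the table and 8.9% of its 17491 protein-coding genes. With a T before and an A after it the hexamer was present in 4 of the 40 (10.0%), against 1.12% of all genes and 1.41% of protein-coding genes. The stretches below run 70 bases from 5′ to 3′ on the coding strand, upstream of the start, with the hexamer in capitals. They are Lamp1 with its 4 copies, Mcoln1, Gla, Ctsd and Ctsa with 2 copies each in their windows, of which the stretches of Ctsd and Ctsa hold 1, and Fuca2, the gene with the clearest age difference, whose window holds none.
Lamp1, chr8:13159091-13159160, plus strand: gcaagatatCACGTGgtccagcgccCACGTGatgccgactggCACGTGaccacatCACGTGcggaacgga
Mcoln1, chr8:3500429-3500498, plus strand: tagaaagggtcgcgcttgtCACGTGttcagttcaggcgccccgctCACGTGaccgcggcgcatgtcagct
Gla, chrX:134601179-134601248, minus strand: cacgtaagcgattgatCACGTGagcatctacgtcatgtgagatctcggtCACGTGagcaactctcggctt
Ctsd, chr7:142387888-142387957, minus strand: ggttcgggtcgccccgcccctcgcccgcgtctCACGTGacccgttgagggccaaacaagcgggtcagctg
Ctsa, chr2:164833703-164833772, plus strand: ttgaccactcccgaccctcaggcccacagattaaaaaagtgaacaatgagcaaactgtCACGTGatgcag
Fuca2, chr10:13500958-13501027, plus strand: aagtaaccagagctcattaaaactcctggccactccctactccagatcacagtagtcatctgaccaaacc
A match describes these letters only, and binding was not measured. The plot of E-box positions shows all 13 holders.

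**Figure D1:**
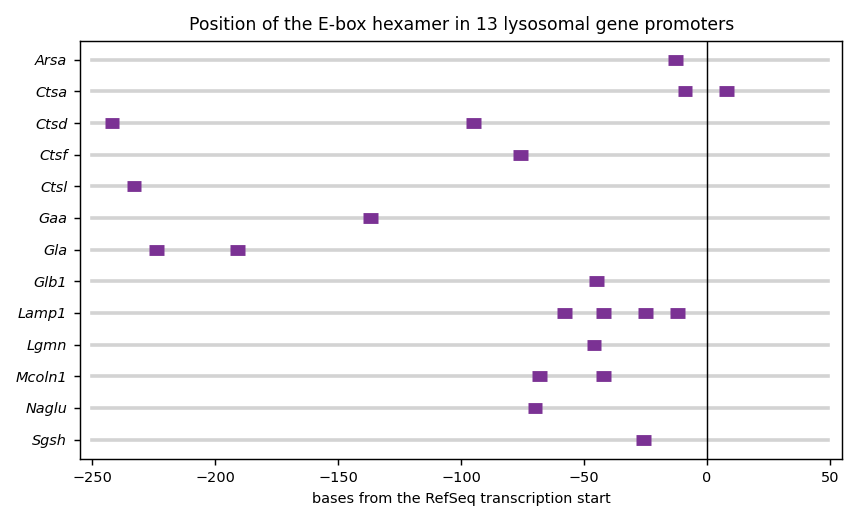
Position of each CACGTG hexamer (points), in bases from the RefSeq transcription start (horizontal axis), in the promoter windows of the 13 lysosomal genes that hold one (vertical axis). Lamp1 carries 4 copies, and the 13 genes are 32.5% of the 40 with a window.

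Fuca2 rose with age, and no other tested lysosomal gene was called in either direction. Fuca2 (NM_025799.4) encodes a fucosidase that removes fucose from glycoproteins and is known as a secreted, plasma form of the enzyme. Levels are given as CPM (reads relative to the TMM-scaled library size), measured on 1 short amplicon per gene. In young libraries Fuca2 stood at 34.3, 42.8 and 38.9 CPM in experiment 1 and at 38.9, 32.8, 43.1 and 44.2 CPM in experiment 2. In aged libraries it stood at 70.1, 65.9 and 54.5 CPM in experiment 1 and at 103 (aged 2.1), 89.6, 91.0 and 56.5 CPM in experiment 2. Every aged library was above every young library, in both experiments, and aged 1.3 and aged 2.4 were the lowest of the aged ones. Such separation of the groups was seen for 49 of the 15184 tested targets (0.323%) and for no other lysosomal gene.

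The mean Fuca2 level was 75.9 ± 18.9 CPM with age, against 39.3 ± 4.44 CPM in the young (SD, n = 7 each). The fold was 1.91, with a 95% interval of 1.55 to 2.35, and the log2 fold change was 0.93 (SE 0.14, adjusted p = 0.0145, edgeR quasi-likelihood test over all targets). The exact two-sided permutation test within experiments gave p = 0.00143, the smallest that its 1400 arrangements allow. The separation of the groups in both experiments fixes this value, which is unadjusted and adds nothing to that separation. Within experiment 1 the log2 fold change was 0.72 (SE 0.20) and within experiment 2 it was 1.10 (SE 0.18). The difference between the experiments did not pass the test (adjusted p = 1, edgeR).

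The Fuca2 call depended on single libraries and on other cells' transcripts as model terms, although its size did not. The adjusted p by edgeR exceeded 0.05 without aged 1.1 (0.0527), aged 2.2 (0.145), young 2.2 (0.0598) or young 2.4 (0.0898), while the log2 fold change stayed between 0.82 and 0.99 over all 14 omissions of 1 library. With the level of leukocyte transcripts as a term the log2 fold change was 0.92 (SE 0.16, edgeR adjusted p = 0.0762), and with macrophage transcripts, a term chosen after seeing the data, it was 0.83 (SE 0.22, edgeR adjusted p = 0.913). Over all targets edgeR called 7 with the leukocyte term and 1 with the macrophage term, against 34 without either.

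Fuca1, the paralog that encodes the lysosomal tissue fucosidase, did not pass the test. It ranged from 40.1 to 60.5 CPM (median 52.8) in young and from 42.3 to 77.3 CPM (median 50.1) in aged libraries, so the groups overlapped. The log2 fold change was 0.13 (SE 0.13, adjusted p = 1, edgeR), 0.04 in experiment 1 and 0.20 in experiment 2. The difference between the age effects of the paralogs was not tested.

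The combined estimates of the 44 genes lay slightly towards higher values in aged libraries, but in experiment 1 only 21 of the 44 were positive, with a median below that of all targets. Of the 44, 1 was called at an adjusted p under 0.05, against 34 of all 15184 targets (0.224%), 18 of them higher in aged libraries (0.119%) and 16 lower (0.105%). The estimates were positive for 30 of the 44 genes (68.2%), against 54.4% of all tested targets. The median log2 fold change was 0.10 over the 44 genes and 0.02 over all targets. An unadjusted p under 0.05 was reached by 8 genes (18.2%), against 7.40% of all targets, and all 8 were higher in aged libraries (background 4.41% higher and 2.98% lower): Fuca2, Ctsz, Ctsc, Ppt1, Hexa, Gaa, Gm2a and Ids. Other than Fuca2 none of these passed the adjustment by edgeR. DESeq2 called 2 of the 44 genes, Fuca2 and Ctsz, and 143 of all targets, against 34 by edgeR. By the exact permutation test within experiments the unadjusted p was 0.0514 for Ids, 0.0829 for Gaa and 0.133 for Gm2a. It was below 0.05 for the others of these 8. Among the remaining genes described in full it was 0.0243 for Arsb, 0.12 for Ctsh and from 0.294 (Lamp2) to 0.974 (Tfe3) for the rest. In bulk RNA of sorted cells, a changed share of a cell type and a changed amount of RNA per cell cannot be told apart.

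**Figure D2:**
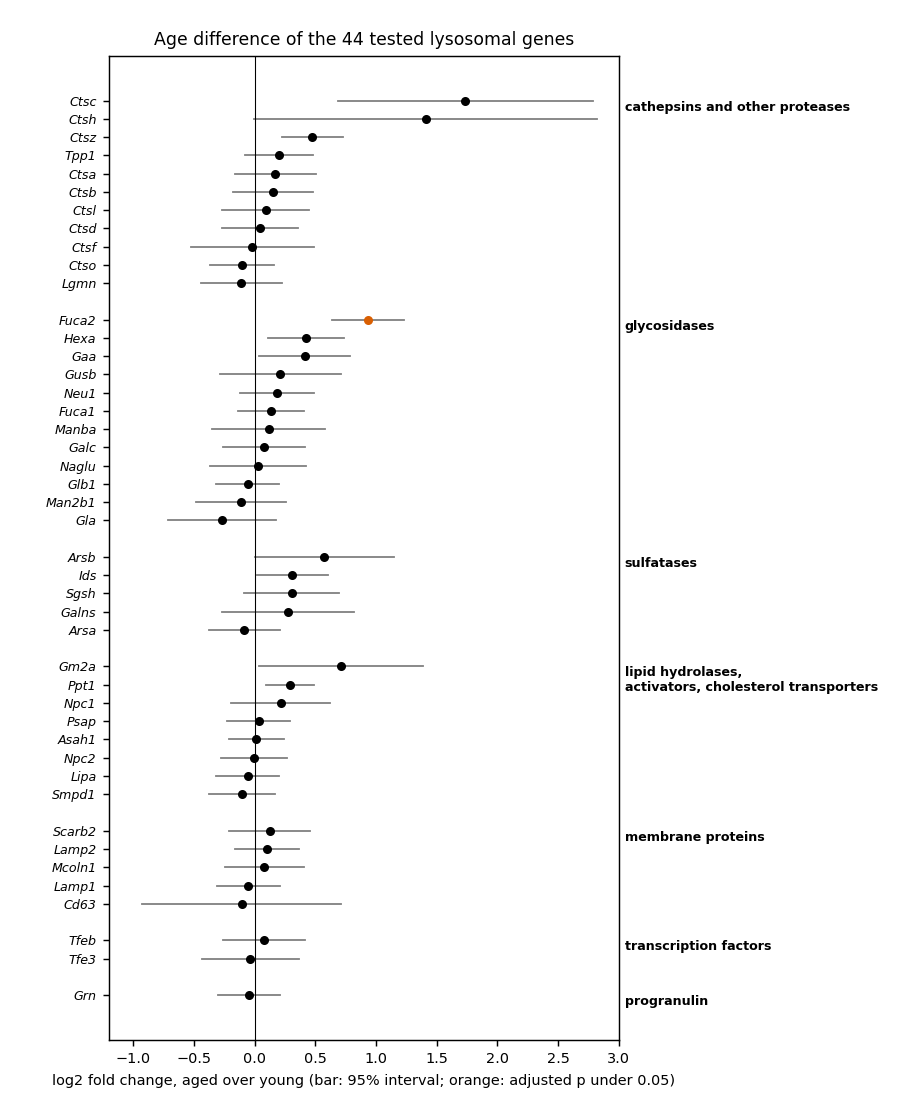
Log2 fold change, aged over young (horizontal axis), of the 44 tested lysosomal genes grouped by role (vertical axis), with bars for the 95% interval. Fuca2 at 0.93 is the gene drawn in orange, with an adjusted p under 0.05.

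Among the 11 cathepsins and other proteases, 8 had positive estimates, the median was 0.15 and none was called by edgeR. Ctsz, which encodes a carboxypeptidase of the cathepsin family, came closest. It ranged from 29.0 to 47.6 CPM (median 36.0) in young and from 45.2 to 56.1 CPM (median 51.5) in aged libraries, and only young 2.3 reached into the aged range. The log2 fold change was 0.47 (SE 0.12, adjusted p = 0.239, edgeR), with 0.48 in experiment 1, 0.47 in experiment 2 and 0.47 with the leukocyte term. All 7 aged libraries lay above the young mean of their experiment, and the unadjusted exact permutation p was 0.00286. Ctsz, Hexa and Ppt1 were described because of their small edgeR p. Such library counts and permutation values therefore add no separate support for them. By DESeq2, which called 143 of all targets against 34 by edgeR, the adjusted p of Ctsz was 0.0340.

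Ctsc encodes dipeptidyl peptidase I, which activates the serine proteases of neutrophils and cytotoxic lymphocytes. Its levels were 1.95, 2.70 and 5.54 CPM in the young libraries of experiment 1 and 8.83, 4.67, 2.85 and 2.96 CPM in those of experiment 2. In aged libraries they were 5.86, 5.96 and 24.5 CPM in experiment 1 and 15.4, 31.2, 10.5 and 4.52 CPM in experiment 2. The log2 fold change was 1.74 (SE 0.49, adjusted p = 0.379, edgeR) and the groups overlapped. The highest Ctsc values, in aged 2.2, aged 1.3 and aged 2.1, came from the 3 libraries with the most Ptprc, the CD45 transcript of leukocytes. Ptprc stood at 68.9, 82.5 and 43.9 CPM there. The Ctsc estimate was 0.80 (SE 0.31) with the leukocyte term and -0.05 with the macrophage term.

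Ctsh, which encodes an aminopeptidase, was highest in the same libraries, but did not follow Ptprc in all others. It ranged from 4.73 to 22.3 CPM (median 6.01) in young and from 5.01 to 84.5 CPM (median 19.3) in aged libraries. The young maximum was young 2.4, which had the lowest Ptprc of all 14 libraries (1.27 CPM). Young 2.2, with Ptprc at 36.8 CPM, had Ctsh at 8.49 CPM. The aged maximum was aged 1.3, the other aged libraries stood at 5.01 to 29.3 CPM, and the groups overlapped. Its log2 fold change was 1.41 (SE 0.66, adjusted p = 0.682, edgeR), 2.56 in experiment 1 and 0.57 in experiment 2. Without aged 1.3 it was 0.44, and with the leukocyte term 0.13.

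The cathepsins with the highest read levels showed no age difference beyond the spread between libraries. Ctsl, an endopeptidase gene, ranged from 1905 to 2921 CPM (median 2609) in young and from 1515 to 3171 CPM (median 3003) in aged libraries. Ctsd, the gene of the main aspartic protease of lysosomes, ranged from 2032 to 2558 CPM (median 2382) in young and from 1653 to 3153 CPM (median 2389) in aged libraries. Both aged ranges reached below and above the young ones, and the log2 fold changes were 0.09 (SE 0.17) for Ctsl and 0.05 (SE 0.15) for Ctsd. Among the other proteases Tpp1, a tripeptidase, had an estimate of 0.20 and Ctsa, the protective protein of neuraminidase and galactosidase, 0.17. Ctsb stood at 0.15, Ctsf at -0.02, Ctso at -0.11 and Lgmn, an asparagine-specific protease, at -0.11, all with overlapping groups.

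**Figure D3:**
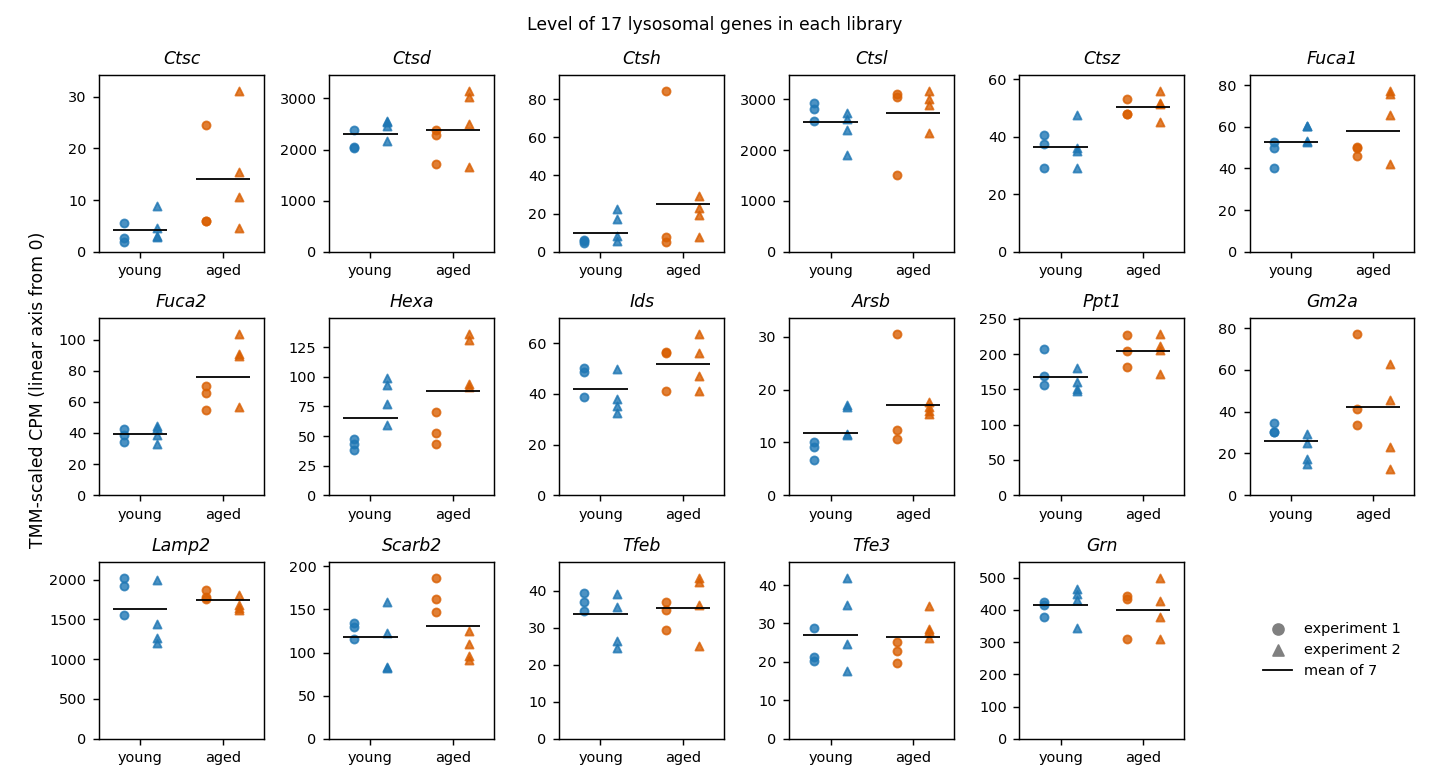
TMM-scaled CPM (vertical axes, linear from 0) of 17 lysosomal genes in each library, aged and young by experiment. The Fuca2 panel shows aged values from 54.5 to 103 CPM above all young values, whereas in the other panels the groups overlap.

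Of the 12 tested glycosidase genes, 9 had positive estimates and the median was 0.12; Fuca2 was the one called. Hexa encodes the alpha subunit of beta-hexosaminidase, which splits gangliosides. It ranged from 38.4 to 99.3 CPM (median 59.3) in young and from 43.3 to 136 CPM (median 91.3) in aged libraries. Both groups were lower in experiment 1 than in experiment 2, and within each experiment all aged libraries lay above the young mean. For Hexa the log2 fold change was 0.42 (SE 0.15, adjusted p = 0.543, edgeR), 0.37 in experiment 1 and 0.46 in experiment 2, with an exact permutation p of 0.0214. Gaa, the acid glucosidase that breaks down glycogen, ranged from 88.5 to 154 CPM in young and from 86.5 to 202 CPM in aged libraries. Its log2 fold change was 0.41 (SE 0.17, adjusted p = 0.635, edgeR), and the lowest aged library was aged 1.3.

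The remaining glycosidases had smaller estimates. Gusb, the beta-glucuronidase, stood at 0.21, Neu1, the lysosomal neuraminidase, at 0.18 and Manba, the beta-mannosidase, at 0.11. Galc, which splits galactosylceramide, stood at 0.08 and Naglu, an enzyme of heparan sulfate breakdown, at 0.02. Negative estimates were found for Glb1, the beta-galactosidase (-0.06), Man2b1, an alpha-mannosidase (-0.12), and Gla, the alpha-galactosidase (-0.27, SE 0.21). None of these passed the test.

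Of the 5 sulfatase genes, 4 had positive estimates and the median was 0.30, with none called by edgeR. Ids, which removes sulfate from iduronic acid in heparan and dermatan sulfate, ranged from 32.3 to 50.3 CPM (median 38.6) in young and from 41.0 to 63.5 CPM (median 56.0) in aged libraries. The groups overlapped, and the log2 fold change was 0.31 (SE 0.14, adjusted p = 0.651, edgeR). Arsb, which removes sulfate from dermatan and chondroitin sulfate, ranged from 6.64 to 17.1 CPM (median 11.4) in young and from 10.6 to 30.5 CPM (median 15.9) in aged libraries. The maximum was again aged 1.3. The Arsb log2 fold change was 0.57 (SE 0.27, adjusted p = 0.678, edgeR), 1.06 in experiment 1, 0.21 in experiment 2 and 0.31 with the leukocyte term. Without aged 1.3 it was 0.29. Sgsh, the sulfamidase of heparan sulfate, stood at 0.30, Galns, a keratan sulfate sulfatase, at 0.27 and Arsa, which acts on sulfatide, at -0.09.

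Of the 8 genes of lipid breakdown, 5 had positive estimates and the median was 0.02, with none called by edgeR. Ppt1 removes palmitate from proteins. It ranged from 148 to 207 CPM (median 160) in young and from 172 to 228 CPM (median 206) in aged libraries. Young 1.2 and young 2.3 reached into the aged range, and the other young libraries lay below it. The log2 fold change was 0.29 (SE 0.09, adjusted p = 0.457, edgeR), 0.21 in experiment 1, 0.36 in experiment 2 and 0.29 with the leukocyte term. All 7 aged libraries lay above the young mean of their experiment (exact permutation p = 0.0114).

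Gm2a, the activator that presents GM2 ganglioside to hexosaminidase, ranged from 15.1 to 34.5 CPM (median 29.3) in young and from 12.6 to 77.1 CPM (median 41.4) in aged libraries. The aged range enclosed the young one, with aged 1.3 and aged 2.2 at the top. The log2 fold change of 0.71 (SE 0.31, adjusted p = 0.650, edgeR) was 0.13 with the leukocyte term and 0.47 without aged 2.2. Npc1, the membrane cholesterol exporter, had an estimate of 0.21. Its soluble partner Npc2 had -0.0053 in the combined comparison, -0.32 (SE 0.16) in experiment 1 and 0.23 (SE 0.14) in experiment 2. That difference between experiments had an unadjusted p of 0.0253 and an adjusted p of 1 by edgeR. Psap, the precursor of the saposins, stood at 0.03, Asah1, the acid ceramidase, at 0.01, Lipa, the acid lipase, at -0.06 and Smpd1, the acid sphingomyelinase, at -0.10.

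The 5 membrane protein genes had small estimates, none was called by edgeR, and none had the same sign in both experiments. Lamp2 ranged from 1208 to 2023 CPM (median 1559) in young and from 1619 to 1874 CPM (median 1754) in aged libraries, entirely inside the young range. Its log2 fold change was 0.10 (SE 0.12). Scarb2, the receptor that carries glucocerebrosidase to the lysosome, ranged from 82.0 to 158 CPM in young and from 91.3 to 187 CPM in aged libraries, with a log2 fold change of 0.12 (SE 0.16). It was 0.39 in experiment 1 and -0.08 in experiment 2. Mcoln1, the lysosomal calcium channel, stood at 0.08, Lamp1 at -0.05 and the tetraspanin Cd63 at -0.11.

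Tfeb ranged from 24.5 to 39.3 CPM (median 35.5) in young and from 25.1 to 43.5 CPM (median 36.1) in aged libraries. Tfe3 ranged from 17.7 to 41.9 CPM (median 24.6) in young and from 19.7 to 34.5 CPM (median 26.3) in aged libraries. The groups overlapped almost entirely for both transcription factors, with log2 fold changes of 0.07 (SE 0.16) for Tfeb and -0.04 (SE 0.18) for Tfe3, the latter 0.01 without TMM scaling. Grn, whose product progranulin is cut into granulins in the lysosome, ranged from 343 to 466 CPM (median 424) in young and from 310 to 500 CPM (median 427) in aged libraries. Its log2 fold change was -0.05 (SE 0.12), and aged 1.3 and aged 2.4 were the lowest of all 14 libraries.

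Genes with and without the E-box were compared with the age estimates by count. Of the 13 genes that hold CACGTG, 7 had positive estimates, the median log2 fold change was 0.02 and none was called by edgeR. Of the 27 genes whose window holds none, 26 were tested, 18 had positive estimates, the median was 0.12 and Fuca2 was called. The difference between these sets was not tested.

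Within experiment 1 no lysosomal gene was called by edgeR, where 0% of all targets were called. An unadjusted p under 0.05 was reached by 5 of the 44 genes, against 1009 of all 15184 targets (6.65%). DESeq2 and limma-voom also called 0 there. Within experiment 2 no lysosomal gene was called by edgeR either, against 0.0198% of all targets. Here 7 of the 44 genes had an unadjusted p under 0.05, against 519 of all 15184 targets (3.42%). DESeq2 called Fuca2 and limma-voom called 0. The median log2 fold change of the 44 genes was -0.01 in experiment 1, where that of all targets was 0.11, and 0.19 in experiment 2, where that of all targets was 0.00. Positive estimates numbered 21 of 44 genes in experiment 1, against 9242 of all 15184 targets, and 33 of 44 in experiment 2, against 7587. The sign was the same in both experiments for 28 of the 44 genes (63.6%), against 52.1% of all targets. No gene was called by edgeR, DESeq2 or limma-voom for a difference between experiments (0% of all targets), and Npc2 was the one with an unadjusted p under 0.05.

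A mean score over the 44 genes (log2 CPM, each gene centred on its mean over the libraries) averaged 0.08 ± 0.22 in aged and -0.08 ± 0.12 in young libraries (SD, n = 7 each). The aged scores in experiment 1 were 0.06, 0.03 and -0.16, and the young ones -0.25, -0.05 and -0.15. In experiment 2 the aged scores were 0.31, 0.25, 0.31 and -0.22, and the young ones -0.07, -0.19, 0.12 and -0.01. Aged 2.1, 2.2 and 2.3 lay above all young libraries, and the other 4 aged libraries lay within the range of the young ones. Aged 2.4 was below every young library of its own experiment. The difference of the means was 0.17 on the log2 scale, 0.12 in experiment 1 and 0.20 in experiment 2. When each library was left out in turn it ran from 0.13 (without aged 2.1) to 0.22 (without aged 2.4). With the median over the genes in place of the mean, the difference was 0.0864, with 0.0078 in experiment 1 and 0.15 in experiment 2. No p is given because the genes were chosen with results of these data known.

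**Figure D4:**
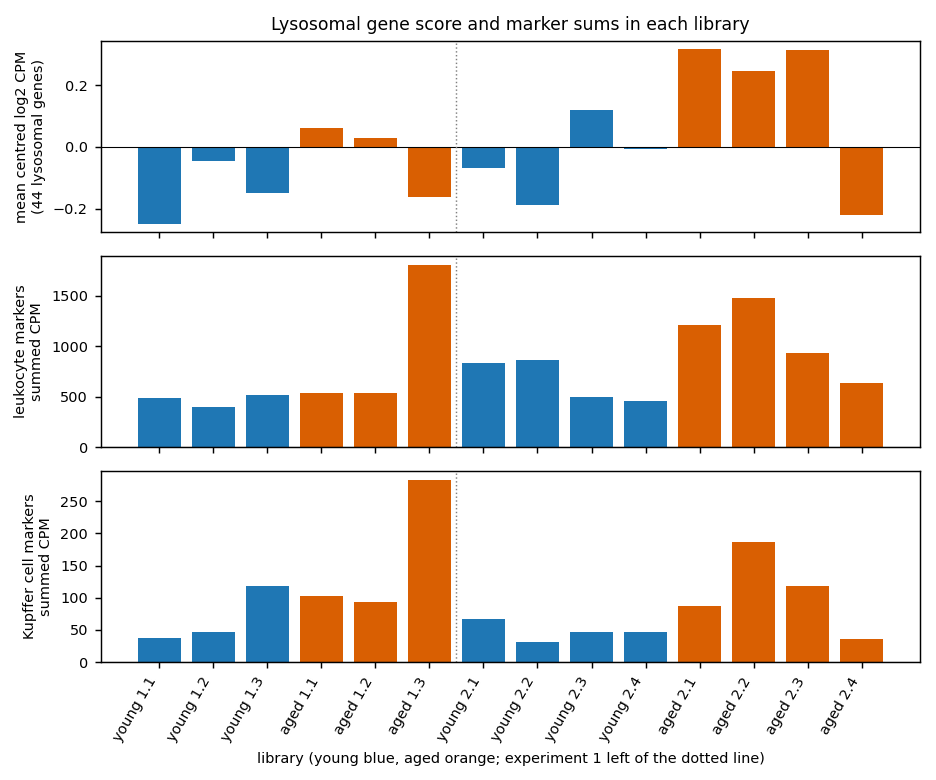
Mean centred log2 CPM of the 44 tested lysosomal genes, and summed CPM of leukocyte and of Kupffer cell markers (vertical axes), in each of the 14 libraries by age and experiment. Aged scores run from -0.22 to 0.31 and overlap the young scores, and aged 1.3 has the highest marker sums.

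Leukocyte and macrophage transcripts were higher on average in aged libraries. Ptprc stood at 12.5, 6.83 and 82.5 CPM in the aged libraries of experiment 1 and at 43.9, 68.9, 18.0 and 3.45 CPM in those of experiment 2. In young libraries it stood at 5.93, 4.05 and 5.04 CPM in experiment 1 and at 27.4, 36.8, 5.56 and 1.27 CPM in experiment 2. All 8 leukocyte markers had positive estimates (median log2 fold change 1.83), none was at 0 in any library, and their sum ran from 534 to 1807 CPM in aged and from 402 to 863 CPM in young libraries. The sum follows the most abundant markers: in aged 2.4, with Ptprc at 3.45 CPM, Fcer1g gave 323 and Lcp1 279 of 634 CPM. The leukocyte term of the model instead averages the centred log2 levels of the 8 markers. It was lowest in aged 2.4 (-1.77), so sum and term rank the libraries differently. The sum of the 11 Kupffer cell and macrophage markers ran from 36.5 to 283 CPM in aged and from 31.0 to 119 CPM in young libraries, with C1qa at 0 in 12 libraries, C1qc and Marco in 2 each and Cd163 in 1. Over all 14 libraries C1qa had 2 reads and C1qc 103, against 4012 for C1qb. Whether their amplicons work equally well was not tested. The LSEC markers summed to 15392 to 24411 CPM in aged and 18663 to 24799 CPM in young libraries, so the labelled cell type was present in all 14. Estimates were negative for 6 of these 9 markers and positive for 3, and none was called by edgeR. Mcam, the CD146 transcript, had the smallest p (log2 fold change -0.53, SE 0.17, adjusted p = 0.457, edgeR). Aged 1.3 had the lowest LSEC sum, the highest leukocyte sum and the highest hepatocyte sum (4408 CPM, against 325 to 1596 CPM in young libraries).

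With the leukocyte level as a term in the model no lysosomal gene was called by edgeR, against 0.0461% of all targets. The median log2 fold change of the 44 genes was 0.12 with that term and 0.10 without it. An unadjusted p under 0.05 was then reached by 8 of the 44 genes, against 662 of all 15184 targets (4.36%). These were Ctsz, Ctsc, Fuca2, Gaa, Hexa, Ids and Ppt1, as without the term, and Tpp1 in place of Gm2a. The genes whose estimate shifted most with the term were Ctsh, Ctsc and Gm2a. The part of leukocyte RNA in their values was not tested further.

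**Figure D5:**
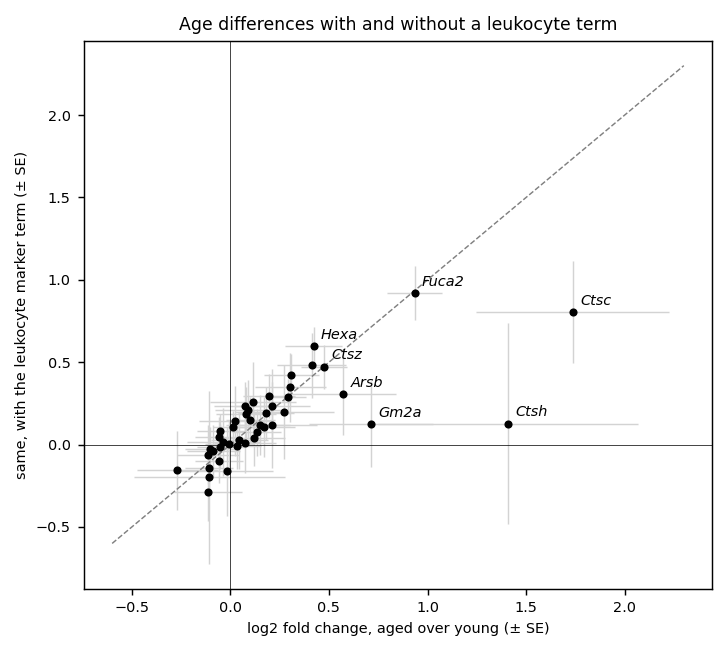
Log2 fold change of the 44 lysosomal genes, aged over young, without (horizontal axis) and with (vertical axis) the leukocyte level as a term. Fuca2 (0.93 and 0.92) and Ctsz (0.47 and 0.47) lie on the diagonal, and Ctsc (1.74 and 0.80), Ctsh (1.41 and 0.13) and Gm2a (0.71 and 0.13) lie below it.

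Libraries also differed in the reads taken by olfactory, taste and vomeronasal receptor targets, 0.145 to 3.15% of reads. In experiment 1 aged 1.1 (3.15%) had the highest lysosomal score and young 1.1 (2.99%) the lowest. In experiment 2 young 2.2 (2.90%) and aged 2.4 (2.78%) stood apart, and these had the lowest lysosomal scores of that experiment. With the receptor level as a term Fuca2 was the 1 gene called, against 0.382% of all targets (log2 fold change 0.90, adjusted p = 0.000508, edgeR), and without these 2 libraries Fuca2 was again the 1 gene called.

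Other genes of the lysosomal pathway, from lists chosen with results of these data known, were not called by edgeR in any of the 6 lists, and 14 of the 120 tested genes had an unadjusted p under 0.05, where 7.40% of all targets did. DESeq2 called 1 of them, Tfec, where it called 143 of all targets, and limma-voom called 0. Among 25 further hydrolases and their helpers 19 had positive estimates and the median was 0.13. Naaa, an amidase of fatty acid ethanolamides, had the smallest p, with an aged mean of 6.50 ± 2.77 CPM and a young mean of 2.91 ± 0.961 CPM (SD, n = 7 each; log2 fold change 1.16, adjusted p = 0.299, edgeR). Ctss, a cathepsin gene of antigen-presenting cells, had an estimate of 1.75, which was 0.40 with the leukocyte term.

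The 15 V-ATPase genes, whose products acidify the lysosome, had a median of 0.05, with 8 positive estimates and the smallest p for Atp6v1f (0.27, adjusted p = 0.636, edgeR). The 20 further membrane proteins had 14 positive estimates and a median of 0.16, with the smallest p for Tmem192 (0.20, adjusted p = 0.628, edgeR). Of the 24 genes of mannose 6-phosphate sorting and transport, 18 had positive estimates, the median was 0.10, and Sort1, which encodes the sorting receptor sortilin, had the smallest p (0.39, adjusted p = 0.687, edgeR). The 17 genes of TFEB and mTORC1 control had 7 positive estimates and a median of -0.04. Tfec, a relative of Tfeb, averaged 276 CPM over aged and 333 CPM over young libraries (log2 fold change -0.28, adjusted p = 0.448, edgeR). The 19 autophagy genes had 8 positive estimates and a median of -0.04, with the smallest p for Ulk1, the kinase that starts autophagy (0.33, adjusted p = 0.442, edgeR).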

How the data were processed

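The authors deposited raw read counts per RefSeq target, 1 table for each of 14 Ion AmpliSeq libraries, a kit that amplifies 1 short target per gene. HTSeq 0.6.0 and DESeq2 1.18.1 were used per the submitters' processing notes, and the aligner, build and strand setting were not given in the sources used here. The 5 bookkeeping entries of the counting tool (1.24 to 3.04% of reads) were left out. Gene reads per library ranged from 6710403 to 13977361, and without molecular identifiers a read is not 1 molecule. Targets were named from the RefSeq table of GRCm38.p6: 18124 matched with version, 4324 without, 114 through GENCODE, and 1368 stayed unmatched.

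Counts were tested in R 4.3.3 with edgeR 4.0.16 (quasi-likelihood F test, filterByExpr by age and experiment, TMM scaling, experiment as a term, Benjamini-Hochberg adjustment over 15184 targets, calls at an adjusted p under 0.05). A model with 4 means gave the values within each experiment and their difference. Alternatives used DESeq2 1.42.0, limma-voom (limma 3.58.1), other filters and scalings, omission of each library, a replicate block and leukocyte, macrophage or receptor terms. Log2 CPM used a prior count of 2. On simulated counts with 14991 genes tested for the combined comparison, 9 of 50 genes changed 1.5-fold, 18 of 50 changed 2-fold, 36 of 50 changed 4-fold and 42 of 50 changed 8-fold were recovered, with 2 false calls. The simulated counts held no difference between experiments and no variation shared between genes, so these rates describe a simpler setting than the libraries.

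The members, lists and tests were chosen with earlier results of these data known. Genes described in full were those called, Fuca1, the 2 with the smallest p per role, the 3 with the highest level, the 3 with the largest fold change at a mean of 5 CPM or more, and the 3 most shifted by the leukocyte term. From the other lists the gene with the smallest p was taken; Ctss, Gaa, Npc2, Tpp1 and other genes given by their estimate alone were added after their values were seen. The libraries aged 1.1 and aged 1.2 were the most alike (chi-square per degree of freedom 6.35, above the 1 of sampling noise) and were kept as separate samples. Marker sums over B and plasma cells ran from 1.90 to 337 CPM, over T and NK cells from 2.12 to 400 CPM, over monocytes and neutrophils from 44.0 to 1490 CPM, over dendritic cells from 64.2 to 281 CPM and over stellate cells from 31.5 to 458 CPM. Mean sums in aged and young libraries were 109 ± 131 and 15.5 ± 18.5 CPM for B and plasma cells (SD, n = 7 each). For monocytes and neutrophils they were 666 ± 594 and 200 ± 182 CPM, and for T and NK cells 78.6 ± 142 and 41.9 ± 64.3 CPM. For dendritic cells they were 244 ± 51.8 and 142 ± 42.0 CPM, and for stellate cells 151 ± 149 and 98.9 ± 65.1 CPM.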

Additional observations from a re-analysis of the deposited data

Results flagged for a closer look

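In 4 of 88 groups of 7 libraries (44 genes, each in aged and in young libraries), 1 library lay apart from the rest by a gap test, which chance alone flags in about 1 in 20 groups. Ctsl was 1515 CPM in aged 1.3, with the other aged libraries at 2340 to 3171 CPM. Galc was 20.3 CPM in aged 1.3, against 40.5 to 43.4 CPM in the other aged libraries, and 27.9 CPM in young 2.2, against 36.4 to 41.3 CPM in the other young libraries. Man2b1 was 93.0 CPM in aged 2.4, against 163 to 199 CPM in the other aged libraries.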

How the results depend on the processing

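The number of lysosomal genes called, 1 in the combined comparison, was 2 with DESeq2 (Fuca2 and Ctsz) and 0 with the leukocyte term, with the macrophage term or with a replicate block, and ran from 0 to 1 when each library was left out. The replicate block pairs libraries by number. Correlations of same-numbered libraries ran from -0.32 to 0.79 and were not positive in every pair. In 2 of the 7 pairs the aged library correlated best with its own number, so the samples were not taken as paired, and the Fuca2 estimate under the block was 0.92 (edgeR adjusted p = 0.106). In experiment 2 the number was 0, and 1 (Fuca2) without TMM, with DESeq2, without young 2.2 and aged 2.4, and with the receptor term; it ran from 0 to 1 over omissions. In experiment 1 it was 0 and ran from 0 to 0, as did the difference between experiments. The other lysosome lists had 0 calls and 1 with DESeq2. Over all targets 34 calls became 2 with the block, 143 with DESeq2, 22 with the stricter filter of 5 CPM in 7 libraries, 19 without the experiment term, 11 with aged 1.1 and aged 1.2 summed, 7 with the leukocyte term, 58 with the receptor term, 1 with the macrophage term, and 4 to 29 over omissions. The filter by age alone and the macrophage term were chosen after seeing the data.

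Signs turned for 12 of the 44 genes with the macrophage term and for 8 without young 2.2. Among the genes described in full they turned with the macrophage term for Ctsc (-0.0463), Ctsh (-1.09), Scarb2 (-0.0480) and Tfeb (-0.115), and for Ctsd without a filter (-0.0041). Tfe3 turned to 0.0068 under the block, 0.0148 without TMM and 0.0159 with the leukocyte term. Over omissions of 1 library the estimate ran from -0.0448 to 0.104 for Ctsd (also -0.0068, -0.0015 and -0.0166), -0.0353 to 0.208 for Ctsl, -0.0414 to 0.126 for Tfeb (also -0.0274), -0.187 to 0.0745 for Tfe3 (also 0.0343 and 0.0086) and -0.156 to 0.0015 for Grn. The cause was not tested. Of the 44 genes, 20 kept their sign in all of up to 27 settings and 24 did not in at least 1. At this depth Idua could not be tested.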
